A study of Mus musculus with 8 samples.

Results

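The 2 arrays labelled siKlf4 without TGFβ were set against the 2 arrays labelled siControl with TGFβ. By these labels, Klf4 depletion is compared directly with TGFβ treatment. The 4 arrays belong to a series of 8, and all 19937 genes represented by a probe set with exactly 1 gene symbol entered the comparison, out of 34760 probe sets. The cells were NMuMG cells, an untransformed epithelial line from the mouse mammary gland, used here as the subclone NMuMG/E9. All 8 arrays came from cells transfected with siRNA, either siControl or siKlf4, which is a pool of siRNAs against Klf4, and each siRNA was used without and with 2 ng/ml TGFβ for 2 days. Each of the 4 groups (siControl, siKlf4, siControl with TGFβ, siKlf4 with TGFβ) holds 2 arrays. Values are log2 expression levels per probe set after Robust Multi-Array normalization. Nothing read for this work tells if replicate arrays stem from independent transfections, so a p-value covers array-to-array spread alone, possibly technical, and the number of arrays limits the precision.

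TGFβ binds a pair of receptor kinases that phosphorylate Smad proteins, which enter the nucleus with Smad4 and regulate target genes. In NMuMG cells this starts an epithelial-to-mesenchymal transition (EMT), in which cell junctions are taken apart and genes of the extracellular matrix, integrins and actin fibres are turned on, and it also slows the cell cycle. Klf4 is a zinc-finger transcription factor of epithelia that acts as activator and repressor and restrains proliferation in many of them. The comparison asks how far the expression state under the siKlf4 label differs from that under the TGFβ label.

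Klf4 itself, the gene targeted by the siRNA, was higher in the siKlf4-labelled arrays than in the TGFβ-labelled ones. Its log2 values were 8.03 and 7.91 in the siKlf4-labelled arrays and 7.46 and 7.46 in the TGFβ-labelled arrays, against 8.60 and 8.43 in untreated siControl and 7.43 and 7.24 in siKlf4 with TGFβ. The 2 groups compared did not overlap, and both lay below untreated siControl. The log2 difference was 0.51 (standard error 0.0987, limma adjusted p = 0.00509). The targeted gene therefore does not settle which pair of arrays received which treatment, since a lower Klf4 level is the aim of the siRNA and is also a known effect of TGFβ. For this reason each group is named by its label, and each difference has 2 readings. As labelled, a positive value is higher in siKlf4 alone than in TGFβ alone. With the labels of these 2 groups exchanged, the same positive value is higher in TGFβ alone than in siKlf4 alone, and Klf4 is then the lower in siKlf4 alone. The size, the error and the p-value are the same in both readings. Which reading holds was not tested, and the values of other genes are given by label below.

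Of the genes that the study follows, Fn1, Edn1 and Vim were higher in the siKlf4-labelled arrays, Mapk8, Cdh1, Ctnnb1 and Tjp1 were higher in the TGFβ-labelled ones, and Cdh2 and Vegfa did not pass. Fn1, which encodes fibronectin, had log2 values of 12.37 and 12.35 in the siKlf4-labelled arrays and 9.84 and 9.73 in the TGFβ-labelled arrays, with 9.61 and 9.70 in untreated siControl. The TGFβ-labelled arrays thus lay close to the untreated ones, and the siKlf4-labelled arrays were 5.93-fold above them, a log2 difference of 2.57 (standard error 0.0803, limma adjusted p = 2.93e-07). Edn1, the precursor of the vasoconstrictor endothelin-1, was at 7.98 and 7.99 against 7.01 and 7.06, a log2 difference of 0.95 (standard error 0.088, limma adjusted p = 6.32e-05). Vim, which encodes vimentin of the mesenchymal cytoskeleton, was at 12.72 and 12.72 against 12.34 and 12.33, a difference of 0.39 (standard error 0.0734, limma adjusted p = 0.00442), on a level that was high in all 8 arrays. Mapk8, the gene of the stress kinase Jnk1, had values of 6.78 and 6.62 in the siKlf4-labelled arrays, 7.60 and 7.59 in the TGFβ-labelled ones and 6.73 and 6.52 in untreated siControl. Its level in the siKlf4-labelled arrays overlapped with untreated siControl (log2 difference 0.07 (standard error 0.0974, limma adjusted p = 0.718)), whereas the TGFβ-labelled arrays were higher than both, by 0.97 over siControl (limma adjusted p = 4.64e-04). The log2 difference between the 2 single treatments was −0.90 (standard error 0.0974, limma adjusted p = 1.69e-04). E-cadherin (Cdh1) was at 10.20 and 10.15 against 10.62 and 10.62, a difference of −0.44 (standard error 0.0772, limma adjusted p = 0.00274). Its partner β-catenin (Ctnnb1) differed by −0.34 (standard error 0.0752, limma adjusted p = 0.00946), a call lost without replicate 1 of the TGFβ-labelled arrays (limma adjusted p = 0.0842), and the tight junction scaffold Tjp1 by −0.64 (standard error 0.0873, limma adjusted p = 6.73e-04).

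Cdh2 and Vegfa had values above untreated siControl in both single treatments. N-cadherin (Cdh2), which replaces E-cadherin in EMT, had log2 values of 9.87 and 9.80 in the siKlf4-labelled arrays, 9.61 and 9.58 in the TGFβ-labelled ones and 8.83 and 8.83 in untreated siControl. The difference between the single treatments was 0.24 (standard error 0.0759, limma adjusted p = 0.0527) with a 95% interval from 0.0676 to 0.412, which did not pass the threshold (it passed in 4 of the alternatives, for example with limma adjusted p = 0.0302 without the dimmest genes), although each was above siControl, by 1.00 (limma adjusted p = 2.40e-05) and 0.76 (limma adjusted p = 4.49e-04). The angiogenic factor gene Vegfa was at 8.95 and 9.07 and 8.99 and 9.02 against 8.65 and 8.63 in siControl. Its difference between the single treatments was 0.01 (standard error 0.0814, limma adjusted p = 0.959), with an interval from −0.174 to 0.195, and the doubly treated arrays were higher than either, at 9.55 and 9.63.

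**Figure D1:**
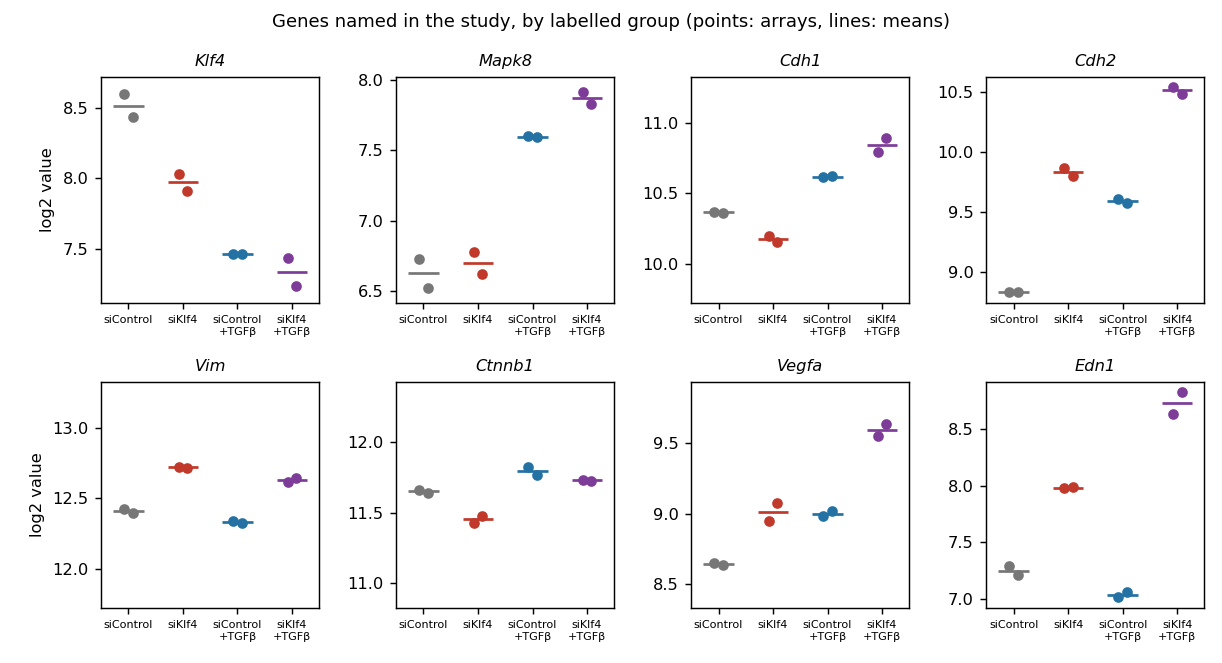
Log2 expression values of Klf4 and 7 genes followed in the study (y axis) in the 4 labelled groups (x axis). Points are the 2 arrays of a group and lines their mean. Klf4 is lowest in both groups labelled with TGFβ, Mapk8 is near its untreated level in the siKlf4-labelled arrays and higher in both groups labelled with TGFβ, and Edn1 is higher in both groups labelled siKlf4.

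Across the 19937 genes, 2297 (11.5%) were higher and 2096 (10.5%) lower in the siKlf4-labelled arrays than in the TGFβ-labelled ones at a Benjamini-Hochberg adjusted p under 0.05 in limma, together 22.0%. With the labels exchanged, these are 2297 genes higher and 2096 lower in TGFβ alone than in siKlf4 alone. Of the called genes, 1051 (5.27% of all genes) were higher and 893 (4.48%) lower by at least 1.5-fold. Without replicate 2 of the TGFβ-labelled arrays, 1364 genes were lower. The values of the 2 groups did not overlap in 55.0% of the genes, so lack of overlap alone says little about a gene here. Differences of single genes ranged from −4.76 to 4.42 with a median of −0.02. With 2 arrays against 2, an exact two-sided permutation test of a single gene cannot give a p below 0.333, so the calls rest on the spread shared across genes in the limma fit.

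The 2 single treatments were farther apart than replicates, and each had its own distance from untreated siControl. The mean absolute log2 difference over genes was 0.152 between the 2 arrays labelled siKlf4, 0.107 between the 2 arrays labelled TGFβ and 0.268 to 0.274 between an array of one and an array of the other. Set against untreated siControl, the siKlf4-labelled arrays differed by 0.247 to 0.290 and the TGFβ-labelled ones by 0.193 to 0.218. In the same fit, 1990 genes (9.98%) were higher and 1936 (9.71%) lower in the siKlf4-labelled arrays than in siControl, and 1158 (5.81%) were higher and 1326 (6.65%) lower in the TGFβ-labelled ones. These comparisons share the siControl arrays. The counts for the TGFβ-labelled arrays depend on single arrays: without replicate 2 of that group they were 481 and 609, without replicate 1 of it 539 and 567, and without replicate 1 of siControl 726 genes were lower.

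**Figure D2:**
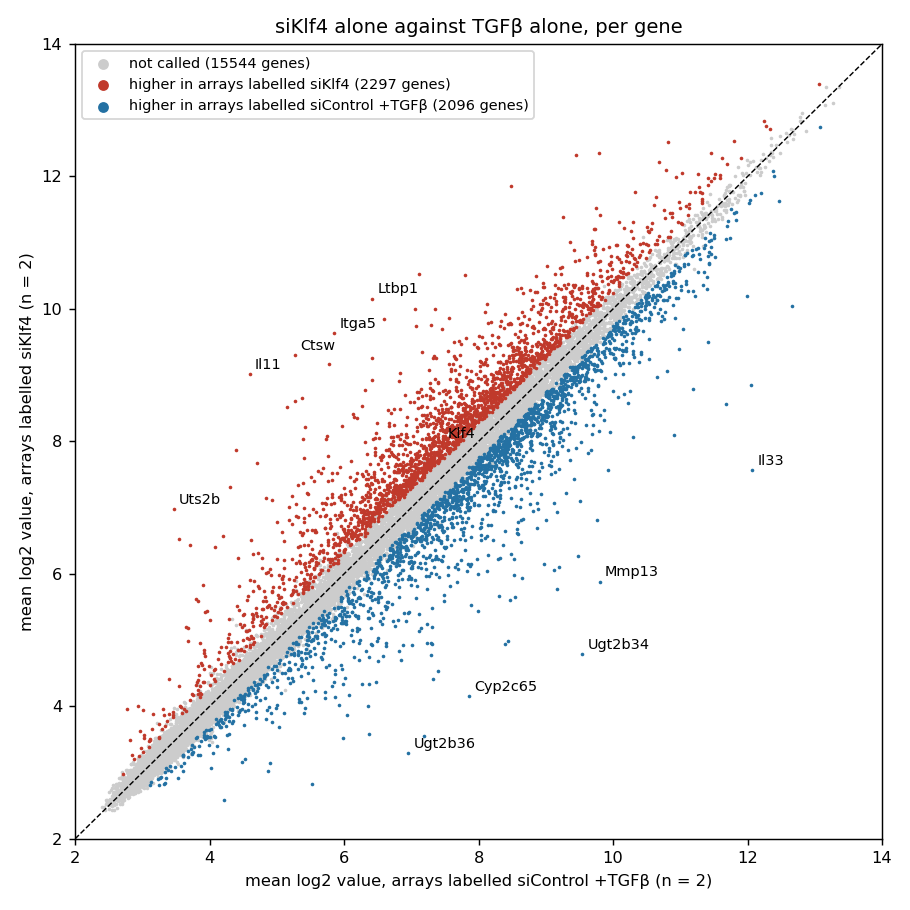
Mean log2 value of each of 19937 genes in the 2 arrays labelled siControl with TGFβ (x axis) and in the 2 arrays labelled siKlf4 (y axis). Each point is a gene, the dashed line marks equal levels, red genes (2297) are called higher and blue genes (2096) lower in the siKlf4-labelled arrays by limma at an adjusted p under 0.05, and Klf4 and the 5 widest differences in each direction are named.

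The 15 widest positive differences were led by Il11, which encodes an interleukin-6 family cytokine induced by TGFβ in many cells. Its log2 values were 8.82 and 9.20 in the siKlf4-labelled arrays, 4.65 and 4.54 in the TGFβ-labelled ones, 4.45 and 5.03 in untreated siControl and 8.75 and 8.69 in the doubly treated arrays. Both groups labelled siKlf4 were thus high, and the TGFβ-labelled arrays lay within the range of the untreated ones. The level was 21.4-fold higher in the siKlf4-labelled arrays, a log2 difference of 4.42 (standard error 0.182, limma adjusted p = 1.02e-06). Itga5, the α subunit of the fibronectin receptor, was at 9.61 and 9.65 against 6.01 and 5.69 (13.7-fold, log2 difference 3.78 (standard error 0.114, limma adjusted p = 2.93e-07)). Ltbp1, which encodes a protein that stores latent TGFβ in the matrix, was at 10.06 and 10.24 against 6.45 and 6.38 (13.4-fold, 3.74 (standard error 0.0884, limma adjusted p = 1.22e-07)). In contrast to Il11, untreated siControl lay between the 2 groups for Ltbp1, at 7.67 and 7.75, and the same was true of the troponin T gene Tnnt2, with 10.54 and 10.51 in the siKlf4-labelled arrays, 7.20 and 7.04 in the TGFβ-labelled ones and 8.43 and 8.40 in siControl. The others were the cathepsin gene Ctsw (4.03), the urotensin-like peptide gene Uts2b (3.51), the steroid hydroxylase gene Cyp21a1 (3.49), Tnnt2 (3.41), the Wnt ligand gene Wnt7a (3.39), the matrix gene Fbln2 (3.38), the actin-capping gene Capg (3.37), the syndecan gene Sdc3 (3.34), the claudin gene Cldn4 (3.29), the tenascin gene Tnc (3.25) and the cornified envelope genes Lce1i (3.01) and Lce1g (2.97). Adjusted p-values of these 15 genes in limma lay between 1.22e-07 and 8.13e-06.

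The 15 widest negative differences were led by Ugt2b34. Ugt2b34, a glucuronosyltransferase gene, had log2 values of 4.71 and 4.86 in the siKlf4-labelled arrays, 9.47 and 9.62 in the TGFβ-labelled ones, 8.26 and 8.09 in untreated siControl and 4.39 and 4.88 in the doubly treated arrays. It was 27.1-fold lower in the siKlf4-labelled arrays, a log2 difference of −4.76 (standard error 0.15, limma adjusted p = 2.93e-07), and the untreated level lay between the 2. Il33, the gene of an epithelial alarmin cytokine, was at 7.88 and 7.25 against 12.11 and 12.03 (22.8-fold lower, −4.51 (standard error 0.184, limma adjusted p = 1.00e-06)), with 10.92 and 10.64 in siControl. Mmp13, which encodes a collagenase, was at 5.91 and 5.85 against 9.83 and 9.77 (15.2-fold lower, −3.92 (standard error 0.0886, limma adjusted p = 1.22e-07)). Mmp13 differed from the other 2 in the doubly treated arrays, where it was at 8.22 and 8.11. These were above the 7.89 and 7.73 of siControl by a log2 difference of 0.36 (limma adjusted p = 0.0127). The others were Cyp2c65 (−3.70), Ugt2b36 (−3.66), the sulfotransferase gene Sult1d1 (−3.64), the uroplakin gene Upk1b (−3.45), the aldo-keto reductase gene Akr1c19 (−3.44), the retinal dehydrogenase gene Aldh1a1 (−3.40), Cyp2s1 (−3.21), the galectin gene Lgals4 (−3.19), the guidance factor gene Sema3c (−3.12), the haem-binding protein gene Hpx (−3.10), the chemokine gene Ccl20 (−3.06) and Vsig1 (−2.95), with limma adjusted p-values between 1.22e-07 and 3.43e-06. Several of these genes (the Ugt2b, Akr1c, Cyp2c and Lce1 genes) have near-identical relatives, and whether their probe sets also measure a relative was not tested, so the value of a single member is uncertain.

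**Figure D3:**
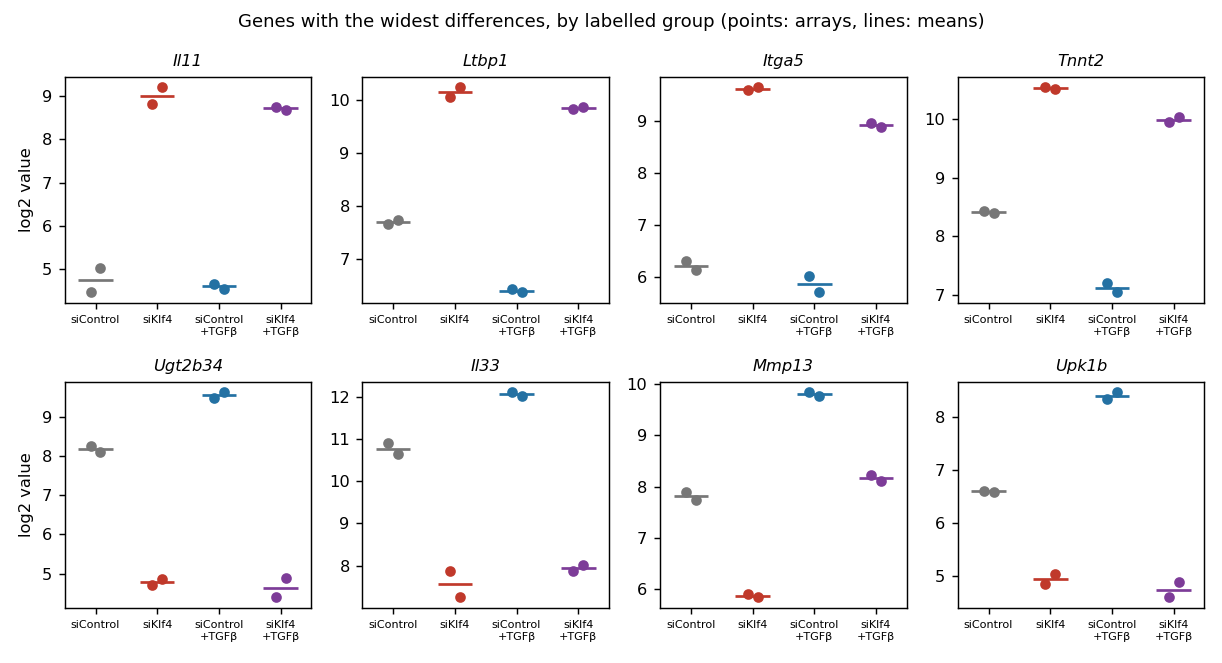
Log2 expression values (y axis) of 4 genes with wide positive and 4 with wide negative differences between the siKlf4-labelled arrays and the TGFβ-labelled ones, in the 4 labelled groups (x axis). Points are the 2 arrays of a group and lines their mean. For Il11 and Itga5 the TGFβ-labelled arrays lie near untreated siControl, for Ltbp1, Tnnt2, Ugt2b34, Il33, Mmp13 and Upk1b untreated siControl lies between the 2 single treatments.

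The promoters of Il11 and Mmp13 are shown because these genes lie at opposite ends of the comparison and both are classical targets of AP-1, the Jun and Fos transcription factor on which Jnk kinases act. Each line gives the 250 bases before a RefSeq transcription start (GRCm38.p6), 5′ to 3′ on the strand of the gene, with the AP-1 motif TGANTCA, which reads alike on both strands, in capitals.
Il11 (chr7:4778142-4778391, minus strand): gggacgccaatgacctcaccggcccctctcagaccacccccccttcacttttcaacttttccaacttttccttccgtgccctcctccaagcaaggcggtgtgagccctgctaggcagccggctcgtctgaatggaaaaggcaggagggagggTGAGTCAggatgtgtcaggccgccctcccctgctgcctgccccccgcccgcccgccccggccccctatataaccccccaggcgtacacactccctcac
Mmp13 (chr9:7272264-7272513, plus strand): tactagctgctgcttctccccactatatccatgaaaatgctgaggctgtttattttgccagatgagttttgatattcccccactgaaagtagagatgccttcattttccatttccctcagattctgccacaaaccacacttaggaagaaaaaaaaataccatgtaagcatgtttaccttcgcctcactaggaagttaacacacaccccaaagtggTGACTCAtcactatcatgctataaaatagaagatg
The Il11 window shown holds TGAGTCA starting 98 bases before the start, while the window of the other Il11 start in the table holds 0 matches, and the Mmp13 window holds TGACTCA starting 35 bases before it. Of the 30 genes with the widest differences, 27 had a window in the table. The motif was in a window of 3 of 13 genes with a positive difference (Il11, Cldn4 and Uts2b) and 2 of 14 with a negative one (Mmp13 and Aldh1a1), and in 6.75% of 32851 windows of all genes. The Smad palindrome GTCTAGAC was in 0 of either and in 0.167% of all windows. Some genes had several windows, and a gene counted if any of them matched. The shares of all windows count single windows, so counts of genes and shares of windows are not alike. A match describes the letters of the window only.

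Genes known to be induced by TGFβ in epithelial cells were higher in the siKlf4-labelled arrays. Of 29 such genes measured, 25 were higher in those arrays and 0 were lower in limma (1 at an unadjusted p under 0.05), with a median difference of 1.43, beside 11.5% and 10.5% of all genes and a median of −0.02. This list and those that follow were chosen with earlier results of these data known, so their counts are descriptions. The members with the widest differences were Il11 (4.42), Ltbp1 (3.74), Tnc (3.25), Fn1 (2.57) and Spsb1 (2.28). Tnc, a glycoprotein of provisional matrix, was at 9.76 and 9.93 in the siKlf4-labelled arrays, 6.67 and 6.53 in the TGFβ-labelled ones and 5.36 and 4.90 in untreated siControl, so that it was above siControl in both (4.71 and 1.46, limma adjusted p = 3.86e-04 for the latter). The 4 members that did not pass were Smurf2 (−0.28, limma adjusted p = 0.075), which encodes a ubiquitin ligase of Smads and receptors, Ltbp2 (−0.09), Lox (−0.08) and Tgfbi (0.04). Smurf2 was called lower in several alternatives. Its limma adjusted p was 0.0252 with a trend and robust moderation, 0.0263 with the mean of all probe sets and 0.0400 without either siControl array. Set against siControl in the same fit, 25 higher and 0 lower of the 29 were called in the siKlf4-labelled arrays (median 1.27), 3 higher and 5 lower in the TGFβ-labelled ones (median −0.00) and 23 higher and 0 lower in the doubly treated arrays (median 1.52), whose label an exchange of the single treatments does not touch. Beside these, 9.98%, 5.81% and 14.7% of all genes were higher and 9.71%, 6.65% and 15.3% lower. A one-way analysis of variance without moderation also called 0 members in each list and direction where limma called 0, in this list and those that follow. With the labels exchanged, the 25 genes are higher in TGFβ alone than in siKlf4 alone.

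Within the TGFβ pathway itself members were called in both directions, the lower ones at a share nearer that of all genes. Of 31 ligands, receptors, Smads and Smad regulators, 10 higher and 5 lower were called in the siKlf4-labelled arrays, with a median of 0.13, beside 11.5% and 10.5% of all genes. The receptor genes Acvr1 (1.30), Bmpr2 (0.93) and Tgfbr1 (0.91), the ubiquitin ligase gene Smurf1 (1.11) and the activin subunit gene Inhba (0.82) were higher. The type II receptor gene Tgfbr2 (−0.49, limma adjusted p = 0.00133), the co-receptor gene Tgfbr3 (−0.73), the activin receptor gene Acvr2a (−0.51) and the BMP ligand gene Bmp4 (−0.70) were lower. Tgfbr1 had values of 10.35 and 10.32 in the siKlf4-labelled arrays and 9.44 and 9.41 in the TGFβ-labelled ones, while Tgfbr2 had 8.85 and 8.81 and 9.29 and 9.35. The 2 subunits of the TGFβ receptor thus differed in opposite directions without overlap of the groups. Id2 and Id1, inhibitors of basic helix-loop-helix factors that TGFβ represses in epithelial cells, were lower in the siKlf4-labelled arrays, by log2 differences of −1.74 (limma adjusted p = 6.14e-05) and −0.85 (limma adjusted p = 1.64e-04). Id2 was at 9.35 and 8.78 against 10.85 and 10.77, with 10.84 and 10.64 in siControl. Myc (0.33, limma adjusted p = 0.063), Id4 (−0.21), Id3 (0.11) and the phosphatase gene Cdc25a (−0.00) did not pass, so 2 of 6 were lower and 0 higher (1 at an unadjusted p under 0.05). Myc was called higher in several alternatives. Its limma adjusted p was 0.00583 with a trend and robust moderation, 0.0352 in the 4 arrays compared alone and 0.0158 without either siControl array.

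Of 15 transcription factors that drive EMT, 7 were higher in the siKlf4-labelled arrays and 0 lower (0 at an unadjusted p under 0.05), with a median of 0.16. The shares of all genes were 11.5% and 10.5%. Zeb2, a repressor of E-cadherin, was at 6.95 and 6.77 in those arrays and 5.36 and 5.26 in the TGFβ-labelled arrays, with 5.30 and 5.28 in siControl and 7.09 and 7.08 in the doubly treated arrays. Its log2 difference was 1.55 (standard error 0.087, limma adjusted p = 3.69e-06). Hmga2 (1.54), Sox9 (1.51), Snai1 (1.10) and Zeb1 (0.93) were higher too. Snai2 (−0.14), Twist1 (0.16) and Twist2 (−0.15) did not pass and had log2 values of at most 5.23 in these 4 arrays. With the labels exchanged, 7 of 15 are higher in TGFβ alone.

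Epithelial genes differed in both directions, and the junctions did not move as one group. Of 30 measured junction genes, 8 higher and 12 lower were called in the siKlf4-labelled arrays, with a median of −0.05. The shares of all genes, for this list and the next ones, were 11.5% and 10.5%. The lower ones included the desmosomal cadherin gene Dsg2 (−1.45), the tight junction gene Ocln (−1.08) and the polarity gene Crb3 (−0.83), in addition to Cdh1 and Tjp1. Dsg2 was at 6.89 and 6.60 in the siKlf4-labelled arrays, 8.24 and 8.14 in the TGFβ-labelled ones and 7.36 and 7.41 in siControl, so that siControl lay between. Cldn4 was higher by the widest margin of the list, at 8.53 and 8.79 against 5.19 and 5.56 (3.29 (standard error 0.144, limma adjusted p = 1.14e-06)). The plakophilin gene Pkp2 (0.85), the p120-catenin gene Ctnnd1 (0.74), the adhesion molecule gene F11r (0.60) and the polarity gene Pard3 (0.51) were higher as well. Of 17 epithelial transcription factors and splicing regulators, 1 higher and 6 lower were called. Rbm47 (−1.28), Ehf (−0.93), Klf5 (−0.86) and Tfap2a (−0.80) were lower and Elf3 (0.72) was higher. Elf3 lost its call in the one-way analysis of variance (adjusted p = 0.0706). Grhl2 (−0.07), a factor that maintains epithelia, was near the low end of the scale in all 8 arrays and did not pass. Among 14 keratins, 5 higher and 4 lower were called: Krt20 (by 2.82-fold), Krt7 (1.18), Krt80 (0.75), Krt18 (0.48) and Krt8 (0.34) were higher, and Krt23 (−1.45) and Krt19 (−0.84) were among the lower ones. The one-way analysis of variance did not call Krt80 (adjusted p = 0.0610). Krt8 and Krt18, the keratin pair of simple epithelia, had log2 values of at least 12.27 in the 4 arrays compared, and the call for Krt8 was lost without either of the TGFβ-labelled arrays (limma adjusted p = 0.0550 and 0.0727). Without replicate 2 of siKlf4 or replicate 1 of the TGFβ-labelled arrays, 2 keratins were lower.

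More genes of focal adhesions, actin fibres and integrins were called higher than lower in the siKlf4-labelled arrays. Of 41 genes of focal adhesions and actin fibres, 26 higher and 2 lower were called (median 0.45), beside 11.5% and 10.5% of all genes. Besides Capg these were led by the smooth muscle actin gene Acta2 (1.95), the caldesmon gene Cald1 (1.65), the calponin gene Cnn2 (1.46) and the transgelin gene Tagln (1.43). The call for Tagln was lost in the one-way analysis of variance (adjusted p = 0.065). Cald1 was at 11.08 and 10.93 in the siKlf4-labelled arrays, 9.36 and 9.35 in the TGFβ-labelled ones and 9.23 and 9.17 in siControl. The 2 lower genes were Lima1 (−1.02, limma adjusted p = 1.22e-04), which encodes an actin-bundling protein, and the kindlin gene Fermt2 (−0.43, limma adjusted p = 0.00386). Actb had a difference of 0.17 and did not pass. It passed with a trend and robust moderation (limma adjusted p = 8.24e-04) and in the one-way analysis of variance (adjusted p = 0.00501). Against siControl, 29 higher and 1 lower of the list were called in the siKlf4-labelled arrays, 11 higher and 1 lower in the TGFβ-labelled ones and 30 higher and 2 lower in the doubly treated ones. The shares of all genes in these 3 comparisons were 9.98% and 9.71%, 5.81% and 6.65%, and 14.7% and 15.3%.

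Of 16 integrin genes, 9 higher and 2 lower were called, with a median of 0.51, beside 11.5% and 10.5% of all genes. Those that pair to bind fibronectin and to release latent TGFβ were higher: Itga5 (3.78), Itgb6 (2.27), Itgb3 (1.73) and Itgav (1.08). Itgb6 was at 8.25 and 8.23 against 5.97 and 5.97, with 6.53 and 6.50 in siControl and 6.82 and 6.72 in the doubly treated arrays. The collagen receptor subunit gene Itga1 (−1.55) and the laminin receptor subunit gene Itga6 (−0.70) were lower. Of 31 mesenchymal genes, 15 higher and 2 lower were called (median 0.34). Thbs1, a matrix protein that activates latent TGFβ, was at 12.26 and 12.39 against 9.51 and 9.39, a difference of 2.88 (standard error 0.0908, limma adjusted p = 2.93e-07). Sparc (−0.33) and Thy1 (−0.28) were lower. The call for Thy1 was lost without any 1 of the siKlf4-labelled, TGFβ-labelled or doubly treated arrays (limma adjusted p from 0.0637 to 0.249), and that for Sparc without either TGFβ-labelled array (0.100 and 0.0561 in limma). Sparc, a collagen-binding matrix protein, had moved up from siControl in both, at 9.29 and 9.28 in siControl, 10.04 and 10.03 in the siKlf4-labelled arrays and 10.39 and 10.34 in the TGFβ-labelled ones.

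The laminin genes of the basement membrane were split, with 4 higher and 4 lower of 17 genes in that list. The shares of all genes were 11.5% and 10.5%. Lamb1 (1.03), Lamb3 (0.66) and the collagen IV gene Col4a2 (1.22) were higher, and Lamb2 (−1.44) and Lamc1 (−0.82) were lower. Without replicate 1 of siKlf4 or replicate 1 of the TGFβ-labelled arrays, 2 of the list were lower. Lamb2 had values of 7.76 and 7.51 in the siKlf4-labelled arrays, 9.08 and 9.08 in the TGFβ-labelled ones and 8.26 and 8.35 in siControl, again with siControl in between. Of 30 genes listed as matrix proteases and inhibitors, 11 higher and 4 lower were called. The cathepsin gene Ctsw (4.03) and Adamts4 (1.58) were higher, and Mmp13 (−3.92), the meprin gene Mep1a (−2.92) and Adam9 (−1.99) were lower. Adam9, a membrane-bound sheddase, was at 7.48 and 7.37 in the siKlf4-labelled arrays and 7.28 and 7.32 in siControl, and at 9.47 and 9.37 and 9.60 and 9.67 in the 2 groups labelled with TGFβ. Set against siControl, Adam9 differed by 0.12 in the siKlf4-labelled arrays (limma adjusted p = 0.403) and by 2.11 in the TGFβ-labelled ones (limma adjusted p = 2.35e-05), so that Adam9, like Mapk8, was called in the latter comparison and not in the former.

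Of 15 genes of the Yap and Taz pathway, 7 higher and 3 lower were called, beside 11.5% and 10.5% of all genes. The target genes Ccn2 (1.53), Ankrd1 (1.44) and Nuak2 (1.80) were higher in the siKlf4-labelled arrays, while the coactivator gene Yap1 (−0.50), its partner gene Tead1 (−0.53) and Crim1 (−0.49) were lower. Ccn2, connective tissue growth factor, was at 12.13 and 12.30 against 10.73 and 10.64, with 10.50 and 10.46 in siControl. Yap1 was at 8.58 and 8.54 against 9.07 and 9.05, with 8.32 and 8.18 in siControl, so that it was lowest in the untreated arrays.

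Of 14 genes of the Jnk cascade and AP-1, 4 higher and 3 lower were called, beside 11.5% and 10.5% of all genes. The upstream kinase genes Map3k1 (−1.21) and Map3k5 (−0.99) and Mapk8 were lower in the siKlf4-labelled arrays, and the AP-1 subunit genes Junb (1.48) and Fosl2 (0.80) were higher. Junb, an early target of TGFβ, was at 8.88 and 8.87 in the siKlf4-labelled arrays, 7.52 and 7.28 in the TGFβ-labelled ones and 8.51 and 8.10 in siControl. Without any 1 of the 4 arrays compared, 2 genes of the cascade were higher. Jun (0.18), Fos (−0.13) and Mapk9 (0.10, Jnk2) did not pass. Of 21 genes of EGF receptors, their ligands and the feedback on Erk kinases, 8 higher and 7 lower were called. The phosphatase genes Dusp5 (1.61) and Dusp4 (1.52) were higher, and the Erk inhibitor gene Spred1 (−1.60), the receptor gene Erbb3 (−1.43) and the ligand gene Ereg (−1.28) were lower. Spred1 was at 7.60 and 7.48 in the siKlf4-labelled arrays, 9.14 and 9.13 in the TGFβ-labelled ones and 7.84 and 7.69 in siControl.

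Of 18 vascular growth factor genes, 8 higher and 2 lower were called, although the median was only 0.08. Pdgfb, a ligand for pericytes and fibroblasts, was at 11.27 and 11.52 against 9.23 and 9.29, with 9.12 and 9.02 in siControl, a difference of 2.14 (standard error 0.103, limma adjusted p = 1.80e-06). The semaphorin and VEGF co-receptor gene Nrp2 (1.58), the sphingosine kinase gene Sphk1 (1.29) and Pdgfa (1.29) were higher and Fgf1 (−1.07) was lower. Of 16 Notch pathway genes, 5 higher and 2 lower were called, beside 11.5% and 10.5% of all genes. The ligand gene Jag1 (1.48) and the receptor genes Notch4 (1.05) and Notch2 (0.93) were higher, and the target gene Hey1 (−0.93) was lower. Of 33 Wnt pathway genes, 6 higher and 7 lower were called (median −0.02), beside 11.5% and 10.5% of all genes, with Wnt7a (3.39), Wnt7b (1.01) and the receptor gene Fzd2 (1.13) higher and the receptor genes Lgr4 (−1.23) and Fzd4 (−0.74) lower. Without replicate 2 of the TGFβ-labelled arrays, 3 Wnt pathway genes were lower.

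Among secreted defence and barrier genes more were called lower than higher in the siKlf4-labelled arrays, and cytokines were called in both directions. Of 28 chemokines and cytokines, 8 higher and 6 lower were called, beside 11.5% and 10.5% of all genes. The monocyte and granulocyte growth factor genes Csf1 (2.25) and Csf2 (1.52) and the Il6 family genes Il11 and Lif (1.62) were higher. Il33 (−4.51), Ccl20 (−3.06) and the neutrophil chemokine gene Cxcl5 (−2.55) were lower. Ccl20 was at 6.04 and 6.08 in the siKlf4-labelled arrays and 9.31 and 8.92 in the TGFβ-labelled ones, the latter within the 9.26 and 8.78 of siControl for 1 of the 2 arrays. Of 17 defence and acute-phase genes, 1 higher and 8 lower were called. Hpx (−3.10), the complement factor gene Cfb (−1.74), Chil1 (−1.64) and the lipocalin gene Lcn2 (−1.49) were lower, and the acute-phase gene Orm1 (2.65) was the higher one. Of 14 genes listed with mucins, uroplakins and trefoil factors, 1 higher and 5 lower were called. Upk1b (−3.45), the galectin gene Lgals4 (−3.19) and Muc1 (−1.54) led the lower ones, and Mal (1.17) was higher. Lgals4 and Mal are in the list but belong to other families.

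Genes of detoxification, redox and lipid metabolism were lower in the siKlf4-labelled arrays more often than they were higher. Of 18 conjugating enzyme genes, 9 were lower and 0 higher (1 at an unadjusted p under 0.05) (median −0.43), with Ugt2b34 (−4.76), Ugt2b36 (−3.66), Sult1d1 (−3.64) and Sult1c2 (−2.23) in the lead. Of 22 genes of aldehyde, alcohol and aldo-keto metabolism, 2 higher and 13 lower were called (median −0.48). Aldh1a1 had values of 5.88 and 5.65 in the siKlf4-labelled arrays, 9.12 and 9.20 in the TGFβ-labelled ones and 8.33 and 8.40 in siControl. The folate enzyme gene Aldh1l1 (1.63) and the retinol dehydrogenase gene Rdh10 (0.53) were the higher ones. Of 29 glutathione and Nrf2 target genes, 4 higher and 19 lower were called (median −0.49). The transferase gene Gsta4 (−2.81), the quinone reductase gene Nqo1 (−2.17), the selenium carrier gene Selenop (−2.07) and Gclc (−1.68), the catalytic subunit of the rate-limiting step of glutathione synthesis, were lower, whereas Gpx1 (0.79), Hmox1 (0.67) and Gsto1 (0.62) were among the higher ones. Gclc was at 9.07 and 8.86 against 10.63 and 10.66, the latter close to the 10.58 and 10.58 of siControl. Of 22 cytochrome P450 genes, 2 higher and 6 lower were called, beside 11.5% and 10.5% of all genes.

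Of 20 genes of cholesterol and fatty acid synthesis, 16 were lower in the siKlf4-labelled arrays and 0 higher (1 at an unadjusted p under 0.05), with a median of −0.54. Hmgcs1, the enzyme before the rate-limiting step of cholesterol synthesis, was at 9.53 and 9.48 in the siKlf4-labelled arrays, 11.40 and 11.42 in the TGFβ-labelled ones and 10.42 and 10.55 in siControl, a difference of −1.91 (standard error 0.0802, limma adjusted p = 1.07e-06). Lss (−1.24), Elovl6 (−1.11), Sqle (−0.79) and Insig1 (−0.71) were lower too. The 4 genes that did not pass were those at the entry to fatty acid synthesis and desaturation, Acly (−0.03), Acaca (−0.15), Fasn (0.22) and Scd1 (−0.24). Fasn passed with a trend and robust moderation (limma adjusted p = 0.00652) and without the dimmest genes (limma adjusted p = 0.0492). At a difference of at least 1.5-fold, 8 of the list were lower. Of 19 glycolysis and hypoxia genes, 2 higher and 10 lower were called (median −0.30), beside 11.5% and 10.5% of all genes. The lower ones were led by the oxygen sensor gene Egln3 (−2.05), Bnip3 (−1.82) and Pdk1 (−1.81), which are targets of the hypoxia-inducible factor, and 4 were lower by at least 1.5-fold.

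Of 36 mitosis genes, 27 were lower in the siKlf4-labelled arrays and 0 higher (0 at an unadjusted p under 0.05), with a median of −0.49, and 13 of them were lower by at least 1.5-fold. Kif11, a spindle motor, was at 8.76 and 8.56 in the siKlf4-labelled arrays, 9.63 and 9.54 in the TGFβ-labelled ones, 9.75 and 9.71 in siControl and 7.65 and 7.69 in the doubly treated arrays, a difference of −0.93 (standard error 0.0908, limma adjusted p = 8.81e-05). Cdk1, the kinase that starts mitosis, was at 9.41 and 9.36 against 10.13 and 10.22 (−0.79 (standard error 0.0827, limma adjusted p = 1.31e-04)), and Ttk (−0.84), Nek2 (−0.83) and Cenpf (−0.71) were lower. The regulators Foxm1 (−0.22) and Cdc25b (0.19) did not pass. Of 34 DNA replication genes, 1 higher and 7 lower were called, with a median of −0.13, beside 11.5% and 10.5% of all genes. The clamp loader genes Rfc5 (−0.71) and Rfc4 (−0.61) were among the lower ones and E2f1 (0.41) was the higher one, while the helicase genes Mcm3 (−0.19) and Mcm6 (0.20) did not pass. Rfc5 lost its call in the one-way analysis of variance (adjusted p = 0.0566). Both helicase genes passed with a trend and robust moderation (limma adjusted p = 0.0411 and 0.0287). Without replicate 1 of the TGFβ-labelled arrays, 2 replication genes were lower, and without replicate 2 of them E2f1 was not called (limma adjusted p = 0.0628).

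Most replication genes were below untreated siControl in both single treatments. In the same fit, 31 of the 34 were lower than in siControl in the siKlf4-labelled arrays (median −0.58) and 26 were lower in the TGFβ-labelled ones (median −0.46), and in the doubly treated arrays all 34 were (median −1.51), beside 9.71%, 6.65% and 15.3% of all genes. In the TGFβ-labelled arrays 1 of the list, the cyclin gene Ccne1, was higher than siControl (0.29, limma adjusted p = 0.0474), and it is named for being the exception. Mcm6, for example, was at 10.41 and 10.32 in siControl, 9.84 and 9.76 in the siKlf4-labelled arrays, 9.63 and 9.57 in the TGFβ-labelled ones and 8.58 and 8.49 in the doubly treated ones. Of the 36 mitosis genes, 34 were below siControl in the siKlf4-labelled arrays (median −0.75), 10 in the TGFβ-labelled ones (median −0.16) and 36 in the doubly treated arrays (median −1.53). These 3 comparisons share the siControl arrays. Among 15 CDK inhibitors, G1 cyclins and their partners, 2 higher and 5 lower were called, beside 11.5% and 10.5% of all genes. Cdkn2b, the p15 inhibitor that mediates arrest under TGFβ, was at 9.81 and 9.89 against 8.71 and 8.79 (1.10 (standard error 0.0835, limma adjusted p = 1.88e-05)), with 8.28 and 8.33 in siControl, and Ccnd1 (0.62) was higher as well. Cdkn2c (−1.10), Rb1 (−0.76) and Cdk6 (−0.73) were lower. In bulk samples a smaller share of dividing cells and less RNA per dividing cell cannot be told apart.

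**Figure D4:**
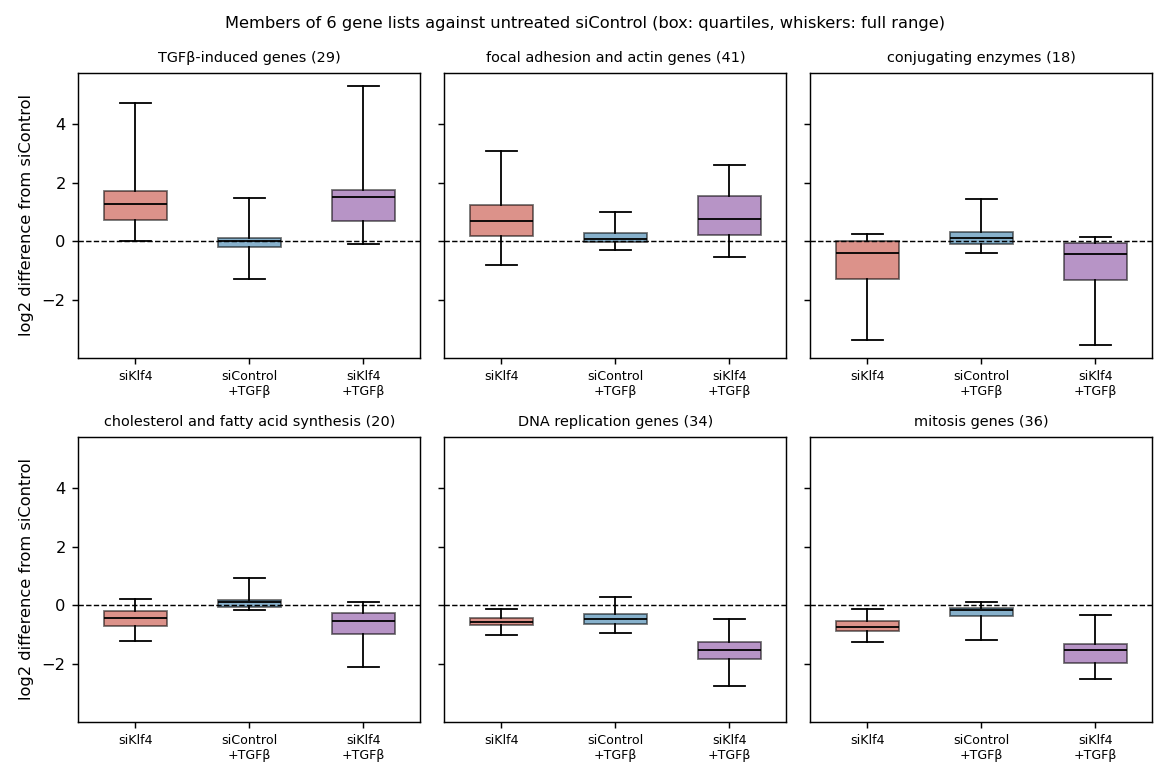
Log2 difference of each member of 6 gene lists from untreated siControl (y axis) in the other 3 labelled groups (x axis), from group means of 2 arrays, with the number of genes after each list's name. Boxes span the quartiles, the line is the median and whiskers reach the extremes. TGFβ-induced genes have medians of 1.27, −0.00 and 1.52, and mitosis genes −0.75, −0.16 and −1.53, in the siKlf4-labelled arrays, siControl with TGFβ and siKlf4 with TGFβ.

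Of 14 Bcl2 family genes, 6 were higher in the siKlf4-labelled arrays and 0 lower (2 at an unadjusted p under 0.05), among them the pro-apoptotic genes Bmf (1.54) and Bcl2l11 (1.09, Bim) and the anti-apoptotic Bcl2 (0.89). Bmf was at 9.54 and 9.62 in the siKlf4-labelled arrays, 7.92 and 8.17 in the TGFβ-labelled ones and 8.83 and 8.90 in siControl, so that siControl lay between. Of 18 p53 target genes, 5 higher and 6 lower were called, beside 11.5% and 10.5% of all genes. Gadd45g (1.75) was higher and Perp (−1.81) lower. The number higher was 3, 2 and 3 without replicate 1 of siKlf4, replicate 1 or replicate 2 of the TGFβ-labelled arrays. Of 27 epidermal differentiation genes, 8 higher and 2 lower were called, beside 11.5% and 10.5% of all genes. Lce1i, Lce1g, Lce1f (1.30) and Serpinb9e (1.93) were higher and Sprr1a (−1.17) was lower. Without replicate 2 of the TGFβ-labelled arrays, 5 were higher. Of 19 Klf and Sp family genes, 5 higher and 1 lower were called. Besides Klf4, the higher ones were Klf13 (0.95), Klf9 (0.76), Klf10 (0.75), an early gene of TGFβ, and Klf7 (0.57), and Klf5 (−0.86) was the lower one. Of 22 genes of the unfolded protein response and Atf4, 2 higher and 5 lower were called, beside 11.5% and 10.5% of all genes. Ddit4 (1.82) was higher and the lipoprotein receptor gene Vldlr (−0.99) lower. Without replicate 2 of the TGFβ-labelled arrays, 2 of this list were lower.

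In some lists the count depended on single arrays. Of 23 respiratory chain genes, 9 were lower in the siKlf4-labelled arrays and 0 higher (0 at an unadjusted p under 0.05), with a median of −0.19, led by Cox7a2 (−0.66). Without 1 array of either group the number lower was 4 to 5 in 3 cases (without replicate 1 of siKlf4, 5; without replicate 1 or 2 of the TGFβ-labelled arrays, 5 and 4). Of 22 genes of fatty acid oxidation and peroxisomes, 4 higher and 8 lower were called, with Hadh (−0.84) and Acadm (−0.81) lower and Acox2 (0.84) higher, and without replicate 2 of siKlf4 or replicate 1 or 2 of the TGFβ-labelled arrays 5, 4 and 5 were lower. The number higher in that list was 1 or 2 without any 1 of the 4 arrays compared. Of 29 nuclear receptors, 7 higher and 6 lower were called, beside 11.5% and 10.5% of all genes. Hnf4a, a regulator of epithelial metabolism, was at 8.21 and 8.01 in the siKlf4-labelled arrays and 9.70 and 9.67 in the TGFβ-labelled ones (−1.57 (standard error 0.102, limma adjusted p = 7.86e-06)), and the bile acid receptor gene Nr1h4 (0.90) and the retinoic acid receptor gene Rara (0.74) were higher. Without replicate 2 of siKlf4 or replicate 1 of the TGFβ-labelled arrays, 4 receptors were higher. Of 21 interferon response genes, 5 higher and 2 lower were called, beside 11.5% and 10.5% of all genes. Oasl2 (1.77) and B2m (1.17) were higher and Ifit2 (−1.10) was lower. Without replicate 1 of siKlf4 or either of the TGFβ-labelled arrays, 2 were higher. Of 10 housekeeping genes, Gusb (0.56) was higher and Pgk1 (−0.45), Sdha (−0.31) and Hprt (−0.26) were lower, and the other 6, among them Rplp0 (0.03) and Ppia (0.07), did not pass. The call for Sdha was lost without replicate 1 of siKlf4 or any TGFβ-labelled or doubly treated array (limma adjusted p from 0.0538 to 0.197), and that for Hprt without any array other than those of siControl (0.0777 to 0.234 in limma).

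**Figure D5:**
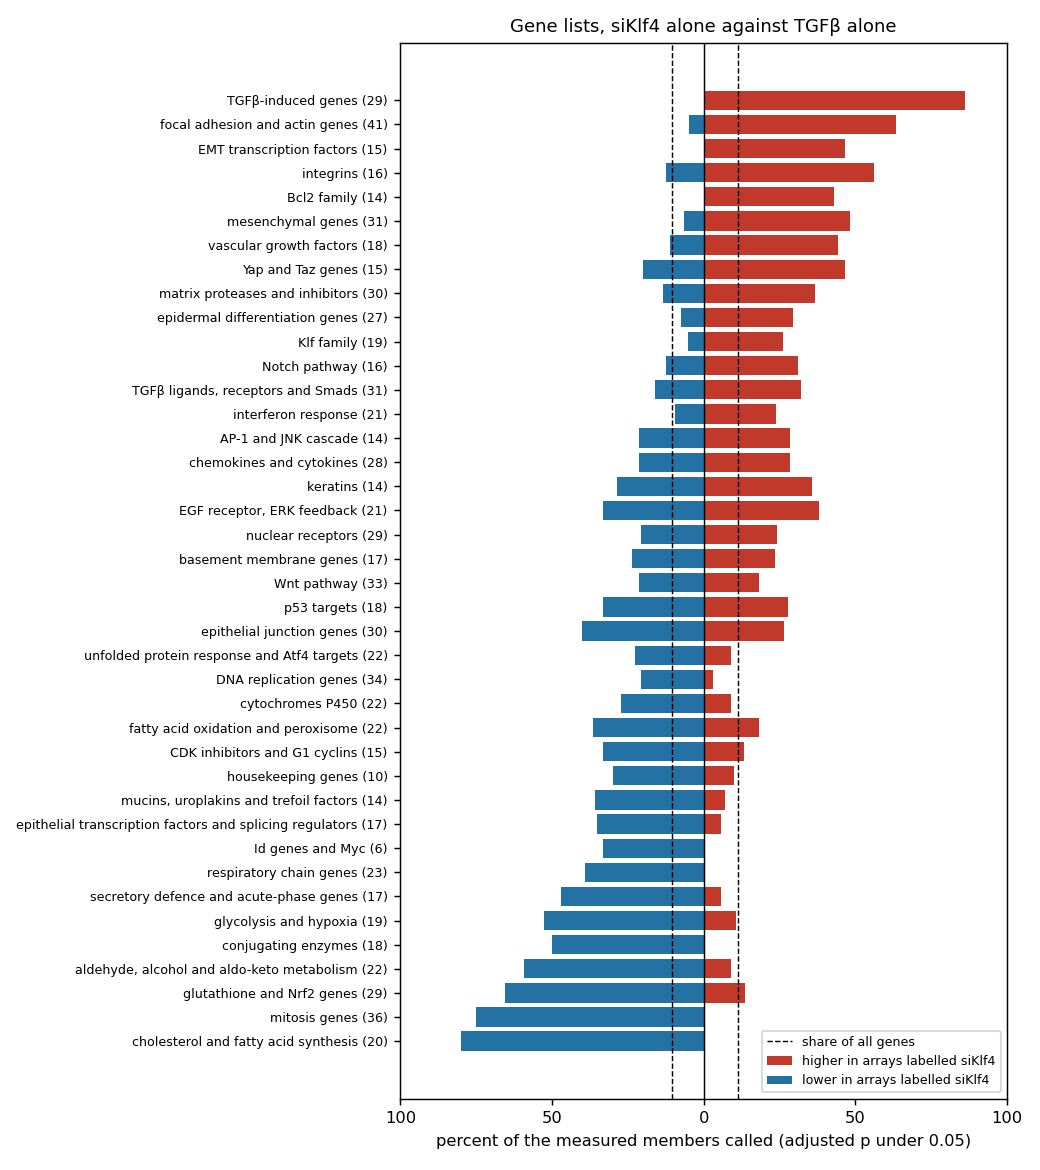
Share of the measured members of each gene list (number after its name) that were called higher (red, to the right) or lower (blue, to the left) in the siKlf4-labelled arrays than in the TGFβ-labelled ones, in percent at a limma adjusted p under 0.05. Dashed lines mark the shares of all genes, 11.5% and 10.5%, and TGFβ-induced genes lie at the top with 25 of 29 higher, and cholesterol and fatty acid synthesis at the bottom with 16 of 20 lower.

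The cell label was checked against marker genes. Of 10 markers of luminal mammary epithelium, Krt8, Krt18, Krt19 and Cdh1 were high in all arrays. Epcam was between 3.90 and 4.09 in the 4 arrays compared, and the milk protein genes Csn2 and Wap were as low. The list also holds Elf5, Prom1 and Kit, so the high genes are only part of it. Of these markers, 2 higher (Krt8 and Krt18) and 2 lower (Krt19 and Cdh1) were called. The shares of all genes, for this list and the marker lists below, were 11.5% higher and 10.5% lower, and no list was tested against them. The mean level of the luminal list was 7.23 to 7.25 in the siKlf4-labelled arrays and 7.32 to 7.32 in the TGFβ-labelled ones. Of 8 myoepithelial markers, 1 higher and 2 lower were called (Acta2 higher, Mylk at −0.74 and Krt5 at −0.67), and the mean level was 5.32 to 5.41 in the siKlf4-labelled arrays and 5.26 to 5.34 in the TGFβ-labelled ones. Of 8 fibroblast markers, Col1a1 (1.09) was higher and Thy1 lower, with mean levels of 4.78 to 4.89 in the siKlf4-labelled arrays and 4.71 to 4.74 in the TGFβ-labelled ones, and Lum, Dcn and Fap were near the bottom of the scale. Of 8 leukocyte markers, 2 higher and 1 lower were called. Cd68 (1.70) and Cd14 (0.57) were higher and Cd79a (−0.43) lower, with mean levels of 4.98 to 5.03 in the siKlf4-labelled arrays and 4.77 to 4.79 in the TGFβ-labelled ones, while Ptprc, the defining leukocyte gene, was at 3.61 and 3.73 and 3.83 and 3.74. Of 8 endothelial and 6 adipocyte markers, 0 were called by limma, and 0 and 2 had an unadjusted p under 0.05. Krt5 was no longer called without replicate 2 of siKlf4 or replicate 1 of the TGFβ-labelled arrays (limma adjusted p = 0.122 and 0.162), Cd14 without replicate 1 of siKlf4 or replicate 2 of the TGFβ-labelled arrays (0.101 and 0.142 in limma), and Cd79a without any 1 of these 4 arrays (0.0814 to 0.179 in limma). What part other cell types had in the results was not tested.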

How the data were processed

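RNA of NMuMG/E9 cells was hybridised to 8 mouse whole-transcript gene arrays. The deposited values are log2 levels that the authors made by Robust Multi-Array analysis (RMA: background correction, quantile normalization, 1 summary per probe set), with oligo 1.14.0 listed among the tools in the submitters' processing notes. The log base is not stated and was read from the range of the values. Quantile normalization forces equal distributions of probe intensities on the arrays before they are summarised, so a shift of all genes is not visible. The summarised values kept small differences, with array medians from 4.902 to 5.002. Of 34760 probe sets, 21640 had 1 gene symbol in the platform annotation, 1321 had several and 11799 were not listed there. The last 2 kinds were left out, and 954 genes represented more than once kept their brightest probe set (mean over all arrays). Groups follow the sample labels.

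A model with 1 mean per group was fitted to all 8 arrays in limma 3.58.1 (R 4.3.3) with empirical Bayes moderation, Benjamini-Hochberg adjustment over 19937 genes and a threshold of 0.05. As a check of the code, the fit was run on simulated arrays with independent noise and known changes. Far fewer genes were changed there than were called here, so that run does not measure error rates in these data. Genes named were the 15 widest differences in each direction whose groups did not overlap, Klf4, genes followed in the study, and from each list up to 5 widest members and up to 3 that moved against the list or did not pass; a few others were named after their values were seen. Members and lists were chosen with earlier results of these data known. Alternatives changed the block, the arrays used, the moderation, the test, array weights, the normalization, a filter on dim genes, the choice of probe set and the threshold, and left out each array in turn. Promoter windows came from RefSeq (GRCm38.p6).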

Additional observations from a re-analysis of the deposited data

How the results depend on the processing

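The counts of genes higher and lower in the siKlf4-labelled arrays than in the TGFβ-labelled ones were 2297 and 2096, and lay between 1809 and 2631 and between 1623 and 2425 under the alternatives that kept the threshold and all 8 arrays or the 4 compared. At an adjusted p under 0.01, 1593 genes were higher and 1382 lower, and at a difference of at least 1.5-fold 1051 and 893. Leaving out each array in turn gave 1557 to 2382 higher and 1364 to 2218 lower. Same-numbered arrays of the 2 groups compared did not deviate together (correlation of deviations −0.013; −0.05 to 0.038 in the other pairs of groups except siControl and siKlf4, where it was 0.382), so the numbers were not taken as pairs, and with the replicate number as a block 2353 genes were higher and 2160 lower, and 2037 and 1994 in siKlf4 against siControl (1990 and 1936 without it). Against siControl, at an adjusted p under 0.01, 1284 genes were lower in the siKlf4-labelled arrays and 563 higher and 644 lower in the TGFβ-labelled ones. At 1.5-fold these were 917 higher and 887 lower, 373 and 455, and, in the doubly treated arrays, 1478 and 1503. Leaving out each array gave 481 to 1193 higher and 567 to 1352 lower for the TGFβ-labelled arrays, and the one-way analysis of variance gave 734 and 755.

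Among the gene lists, 1.5-fold as a limit left 3 keratins, 3 EGF receptor pathway genes, 2 interferon response genes, 3 nuclear receptors, 5 epidermal genes and 3 Klf family genes higher. It left 2 Wnt pathway, 8 cholesterol and fatty acid synthesis, 4 fatty acid oxidation, 4 glycolysis, 1 unfolded protein response, 2 DNA replication, 13 mitosis, 3 CDK inhibitor and cyclin, 3 p53 target and 1 respiratory chain genes lower. An adjusted p under 0.01 left 2 interferon response genes and 4 nuclear receptors higher, and 4 Wnt pathway, 4 fatty acid oxidation and 5 respiratory chain genes lower. With a trend and robust moderation 8 unfolded protein response, 13 replication and 14 respiratory chain genes were lower. The one-way analysis of variance gave 5 cytokines, 4 nuclear receptors and 5 epidermal genes higher, and 5 fatty acid oxidation and 4 replication genes lower. Leaving out each array gave 3 to 9 Wnt pathway, 4 to 7 fatty acid oxidation, 2 to 5 unfolded protein response, 2 to 9 replication and 4 to 9 respiratory chain genes lower, and 2 to 5 interferon response genes, 4 to 7 nuclear receptors and 5 to 7 epidermal genes higher. List counts of 1 to 3 members changed by 1 or 2 in several lists when an array was left out. Where limma called 0 members of a list, some alternatives called 1: among TGFβ-induced genes (lower), Id genes and Myc (higher), cholesterol and fatty acid synthesis (higher), the Bcl2 family (lower), the respiratory chain (higher) and adipocyte markers (lower). Of 4364 pairs of a named gene and an alternative, 4264 stayed on their side of the threshold, 77 lost the call and 23 gained it, and 0 of the called differences changed sign. In the one-way analysis of variance the call was lost for Tagln, Elf3, Krt80, Rfc5, Krt5, Cd14, Cd79a and Sdha. The cause of these changes was not tested. The 2 arrays per group leave small differences undetectable, and dim genes near the bottom of the scale have understated differences.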
